A study of Arabidopsis thaliana with 8 samples.

Results

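The genes described here are the 195 of 24648 loci on a 2-colour Arabidopsis thaliana array whose deposited description names a pectinesterase, a pectate lyase, a pectin acetylesterase or a polygalacturonase. By the same descriptions they are 60 pectin methylesterases (PMEs), 35 PME inhibitors, 11 pectin acetylesterases, 22 pectate lyases, 60 polygalacturonases, 3 BURP-domain polygalacturonase subunits and 3 polygalacturonase inhibitors. The words of the rule therefore take in 38 inhibitor genes beside the enzymes. The remaining member, AT3G27990, has a description that mentions a pectinesterase gene but no such activity, and it was counted apart.

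Homogalacturonan, the main pectin of the primary cell wall, is secreted with most of its acid groups methylated. PMEs remove the methyl groups in the wall, and PME inhibitors bind these enzymes and block them. Demethylated stretches can be bridged by calcium, or they can be cut by pectate lyases, which cleave by elimination, and by polygalacturonases, which cleave by hydrolysis. Acetyl groups on the same backbone are removed by pectin acetylesterases. In Arabidopsis these families are known for pollen tube growth, for the separation of organs and pollen grains, for seed coat mucilage and for the outgrowth of organ primordia.

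Each array compared embryos of the bdl cross, in which M0191 was the female and bdl the male parent, with embryos of the Col-0 cross, in which M0171 was the female and Col-0 the male parent. The embryos were isolated 6 d or 3 d after pollination, with 4 arrays per stage described as biological replicates, and the dyes were exchanged between replicates 1 and 2 and replicates 3 and 4. The ecotype is labelled Col-0 in both channels. bdl (bodenlos) is known as a stabilised form of the auxin response repressor IAA12 that disturbs the embryonic root. The labels do not say what M0191 and M0171 carry or what drives bdl, and both parents differ between the crosses, so a difference due to the mother and one due to the father cannot be told apart. For 3 d the deposited intensities of both channels were used; for 6 d only log2 ratios were analysed, and they were assumed to run in the direction that the 3 d columns of the same table have.

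The arrays of a stage resembled each other, with correlations of their log2 ratios between 0.645 and 0.754 at 6 d, over all genes tested. At 3 d the correlations lay between 0.667 and 0.855, over only those genes above the blank spots in both crosses on every array. Replicate 4 of 3 d stood slightly apart, at 0.667 to 0.709 with the other 3. Among the blank spots of 3 d the median log2 ratio was positive on replicates 1 and 4 (1.28 and 0.79) but negative on the other pair (−1.18 and −1.32), a pattern that does not follow the labelled dyes. All 9 embryo markers (among them LEC1, WOX2, WOX8 and STM) lay above the 95th percentile of the blank spots on every array in the Col-0 cross, and 8 did in the bdl cross.

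Of the 195 members, 143 (73.3%) exceeded the blank spots in either channel on at least 2 of the 4 arrays of 3 d, against 19839 of all 24648 loci (80.5%). Polygalacturonases had the lowest share among the 5 large families, with 39 of 60 (65.0%). The others had 45 of 60 PMEs, 26 of 35 PME inhibitors, 18 of 22 pectate lyases and 10 of 11 pectin acetylesterases. In 80 members both crosses were above the blanks on all 4 arrays. Differences were tested with limma on 143 members at 6 d, 138 at 3 d and 124 at both stages, while 38 members could be tested at neither. A gene was called at a Benjamini-Hochberg adjusted p under 0.05 over all genes tested, and every log2 value below is a difference between the crosses, bdl cross over Col-0 cross.

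At 3 d, genes for pectin-modifying enzymes and their inhibitors were more often higher than lower in the bdl cross. Of the 138 tested members 43 (31.2%) passed, 31 of them higher and 12 lower. Over all 19232 genes tested 13.1% passed, 7.00% higher and 6.08% lower. The members' median log2 ratio was 0.28 and that of all genes −0.01. Called members higher by 1 log2 unit or more numbered 16 and included 6 PMEs, 3 PME inhibitors, 3 pectate lyases and 4 polygalacturonases. A member below the blanks in both crosses was not tested, so these counts cover the brighter members.

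The calls at 3 d depended on all 4 arrays. With any 1 array left out and the dye term kept, 1 residual degree of freedom remained and limma called 0 members and 0 genes in all, while 52 to 60 members had an unadjusted p under 0.05. Without the dye term, leaving out replicate 1, 2, 3 or 4 gave 38, 27, 28 or 43 called members.

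The VANGUARD genes, a small subfamily of PMEs, were among the 4 highest PMEs at 3 d. Among 41 tested PMEs 10 (24.4%) were higher and 1 (2.44%) was lower, beside 7.00% and 6.08% of all genes. The median log2 ratio of these PMEs was 0.30. VGD1 (VANGUARD1, AT2G47040), a PME needed for pollen tube growth in the pistil, had intensities of 1065, 1332, 1252 and 572 in the bdl cross against 116 to 345 in the Col-0 cross. Its log2 ratio was 2.50 ± 0.22 (SE, n = 4 arrays; limma, adjusted p = 0.0318). Its neighbour VGDH1 (AT2G47030) gave 1242, 1043, 1086 and 725 in the bdl cross against 236, 199, 243 and 179 in the Col-0 cross, with a log2 ratio of 2.24 ± 0.06 (limma, adjusted p = 0.0225). The related VGDH2 (AT3G62170), described as similar to a pollen-specific pectin esterase of Brassica, had a log2 ratio of 2.56 ± 0.06 (limma, adjusted p = 0.0225), with 284 to 523 in the bdl cross against 47.8 to 71.1 in the Col-0 cross. In all 3 genes the lowest array of the bdl cross lay above the highest array of the Col-0 cross.

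Other PMEs that were higher at 3 d spanned a wide range. AT3G05610 had 786, 560, 269 and 1444 in the bdl cross against 223, 157, 28.5 and 306 in the Col-0 cross, a log2 ratio of 2.28. AT5G51490, measured on 3 arrays, had 401, 414 and 229 against 94.2, 93.7 and 68.9 in the Col-0 cross, a log2 ratio of 1.92. In AT3G05610 the intensities of the crosses overlapped between arrays although each array on its own showed the bdl cross higher. AT5G07430 and its neighbour AT5G07420 had log2 ratios of 1.29 and 0.82. PME3 (AT3G14310), an enzyme found widely in vegetative tissue and known as a partner of a nematode cellulose-binding protein, averaged 733 ± 287 in the bdl cross and 439 ± 204 in the Col-0 cross (SD, n = 4 each), a log2 ratio of 0.77 ± 0.09 (limma, adjusted p = 0.0368). AT2G26440 changed least of those called, with 0.47.

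The lower PME was AT1G02810, with intensities of 343, 61.2, 66.6 and 448 in the bdl cross against 1023, 115, 190 and 1283 in the Col-0 cross and a log2 ratio of −1.38 ± 0.14 (limma, adjusted p = 0.0338). The levels fell into a high and a low pair of arrays, and within each array the bdl cross was lower. PME5 (AT5G47500), known for its part in organ outgrowth at the shoot meristem, had −0.74, −1.11 and −1.68 on its 3 arrays and did not pass (log2 ratio −1.07; limma, adjusted p = 0.0884). PPME1 (AT1G69940), a pollen PME, was above the blanks on 2 arrays in the bdl cross and 1 in the Col-0 cross, and its ratios ran from −1.08 to 2.40. PME44 (AT4G33220) had a log2 ratio of 0.00 with a standard error of 0.06, and PME61 (AT3G59010), with 0.46, did not pass either (limma, adjusted p = 0.221). AT2G45220 had values on 1 array only (192 in the bdl cross against 58.6 in the Col-0 cross) and was not tested.

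**Figure D1:**
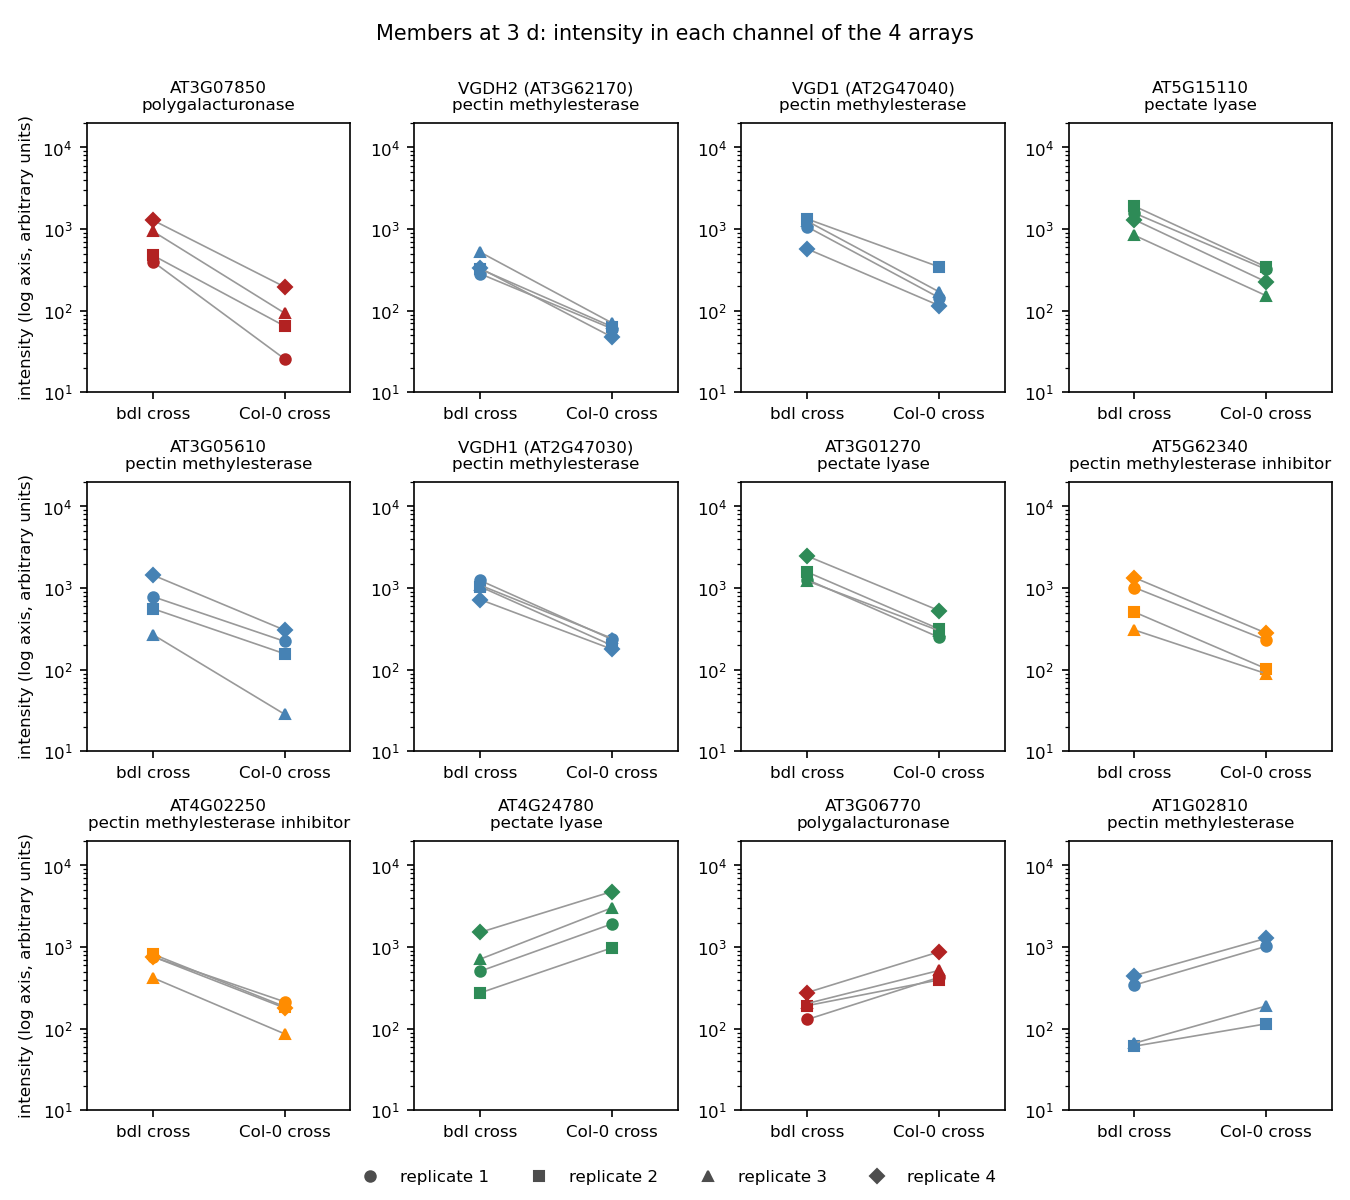
Intensity at 3 d (log axis, arbitrary units) of 12 members in the bdl cross (left) and the Col-0 cross (right), with 1 symbol per replicate and a line joining the channels of an array. The first 9 panels are the called members with the largest log2 ratios that had values on all 4 arrays, and every line falls towards the Col-0 cross; the last 3 are the largest called decreases with both channels above the blanks on at least 2 arrays, and every line rises.

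PME inhibitors had the largest share of higher members at 3 d among the 5 large families (34.6%). Of 26 tested, 9 were higher and 2 (7.69%) were lower, beside 7.00% and 6.08% of all genes. Their median log2 ratio was 0.58, and 24 had a ratio above 0. AT5G62340 had 1016, 509, 307 and 1344 in the bdl cross against 231, 103, 89.6 and 281 in the Col-0 cross. Its log2 ratio was 2.12 ± 0.12 (limma, adjusted p = 0.0269). AT4G02250, whose description notes a weak likeness to a pistil gene of potato, had 761, 819, 421 and 765 against 214, 187, 86.6 and 180 in the Col-0 cross, a log2 ratio of 2.08. AT3G12880 followed with 1.46. Both C/VIF1 (AT1G47960) and C/VIF2 (AT5G64620) were higher, with log2 ratios of 0.86 and 0.84. These 2 carry the domain of the family but are known as inhibitors of invertases (fructosidases), not of PMEs. AT1G09370 had 46314 ± 7649 in the bdl cross and 27710 ± 6616 in the Col-0 cross (SD, n = 4 each), a log2 ratio of 0.76 ± 0.12 (limma, adjusted p = 0.0483), and 5 alternative settings ended this call, with adjusted p from 0.051 to 0.063. AT3G17150, also among the 10 brightest members, averaged 51982 in the bdl cross and 39119 in the Col-0 cross, a log2 ratio of 0.46 that did not pass (limma, adjusted p = 0.15).

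Of the lower inhibitors, neither was above the blanks in the bdl cross on any array. AT1G70720 had 11.8, 20.5, 14.2 and 14 in the bdl cross, not above the blank spots, against 41.2, 38.2, 81.2 and 98.6 in the Col-0 cross, which was above them on 3 arrays. Taken against the dimmest signal above the blanks, it was at least 1.21-fold lower in the bdl cross. This call ended with an intensity trend in the fit (adjusted p = 0.0549) and, without the dye term, without replicate 1, 3 or 4 (adjusted p 0.0828, 0.0982 and 0.073). AT1G62770 was also called lower, but its dim channel allows no size. Its call ended with an intensity trend in the fit (limma, adjusted p = 0.14) and with a dye term following the blank spots (adjusted p = 0.069). Without the dye term it also ended when replicate 1, 2, 3 or 4 was left out (limma, adjusted p 0.0609, 0.0875, 0.0967 and 0.109).

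Pectate lyases at 3 d gave 5 (27.8%) higher and 2 (11.1%) lower of 18 tested, beside 7.00% and 6.08% of all genes. The 3 largest increases were in AT5G15110, AT3G01270 and AT59 (AT1G14420), which the deposited descriptions all liken to P59, a pectate lyase of tomato. AT5G15110 had 1572, 1909, 840 and 1303 in the bdl cross against 322, 344, 153 and 226 in the Col-0 cross, a log2 ratio of 2.44 ± 0.07 (limma, adjusted p = 0.0225). AT3G01270 had 1270, 1572, 1225 and 2470 against 250, 316, 301 and 531 in the Col-0 cross, and its log2 ratio was 2.23 ± 0.07 (limma, adjusted p = 0.0225). AT59 had 1439, 1036, 913 and 626 against 311, 264, 236 and 195 in the Col-0 cross, a log2 ratio of 1.96 ± 0.09 (limma, adjusted p = 0.0241). None of these 3 had a bdl-cross array as low as its highest Col-0-cross array. AT1G67750 and AT3G07010 were higher by 0.96 and 0.88.

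The clearest decrease at 3 d was in the pectate lyase AT4G24780, with 507, 275, 712 and 1516 in the bdl cross against 1923, 979, 3030 and 4791 in the Col-0 cross. It was 3.67-fold lower (log2 ratio −1.88 ± 0.10; limma, adjusted p = 0.0274). AT3G27400 had 12.7, 15.9 and 55.5 in the bdl cross, on no array above the blanks, against 68.6, 87.2 and 199 in the Col-0 cross, and was at least 2.49-fold lower, a call that ended when dim probes were kept (adjusted p = 0.056). It and both lower inhibitors are 3 of the 12 lower members, and they passed the filter through the Col-0 cross alone, where they are high. PMR6 (AT3G54920), a pectate lyase gene whose loss gives resistance to powdery mildew, had log2 ratios between −0.24 and 1.40 and did not pass (limma, adjusted p = 0.567). AT3G53190 and AT3G55140, both among the 10 brightest members, had log2 ratios of 0.06 and 0.07 and did not pass.

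Polygalacturonases at 3 d gave 6 (15.8%) higher and 4 (10.5%) lower of 38 tested, beside 7.00% and 6.08% of all genes. The exopolygalacturonase AT3G07850 had 399, 477, 940 and 1286 in the bdl cross against 25.7, 64.9, 93.5 and 196 in the Col-0 cross, where it was above the blanks on 2 arrays. Its log2 ratio of 3.22 ± 0.25 (limma, adjusted p = 0.0303) was the largest of the 138 tested members. AT3G14040, which the deposited description calls nearly identical to the same exopolygalacturonase, had a log2 ratio of 1.71, and how far the probes tell the 2 genes apart is not known. AT3G07820 (PGA3 in its description) had 2.40, 2.24 and 2.46 on replicates 1 to 3 and 0.63 on replicate 4, and did not pass (limma, adjusted p = 0.0615). AT4G32380 was among the brightest members and was higher by 1.34 ± 0.06 (limma, adjusted p = 0.0241), with ratios between 1.28 and 1.40 on the 4 arrays.

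AT3G26610 was also called, with a fitted log2 ratio of 2.70, but its arrays read 5.42, −0.23 and 0.18 and its Col-0 channel was above the blanks on none of them. The value rests on replicate 2: without it and without the dye term the log2 ratio was −0.03. This was the 1 called member of 43 whose arrays did not all have the sign of the fit.

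Lower polygalacturonases were AT3G06770, AT3G15720, AT1G80170 and PGAZAT (AT2G41850). AT3G06770 had 130, 192, 204 and 278 in the bdl cross against 426, 397, 518 and 875 in the Col-0 cross, a log2 ratio of −1.44, with no overlap between the crosses. PGAZAT, known as ADPG2 and for its part in the shedding of floral organs and the opening of the fruit, had 2588, 2583, 2342 and 2759 against 3882, 3768, 3846 and 4220 in the Col-0 cross. Its log2 ratio of −0.61 ± 0.06 (limma, adjusted p = 0.0331) was small, and the 4 arrays ran from −0.72 to −0.54. Its relative ADPG1 (AT3G57510) had 0.13 on 3 arrays and did not pass, and QRT2 (AT3G07970), known from the separation of pollen tetrads, was above the blanks on no array.

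Among the remaining members, the polygalacturonase inhibitor FLR1 (AT3G12145), a leucine-rich repeat protein, was lower with a log2 ratio of −0.68 (limma, adjusted p = 0.0335). PGIP2 (AT5G06870), an inhibitor of fungal polygalacturonases, ran from −0.10 to 2.00 and did not pass. Of 10 tested pectin acetylesterases AT2G46930 was higher (0.70) and AT3G05910 and AT3G62060 were lower (−0.78 and −0.63). These shares were 10% and 20%, beside 7.00% and 6.08% of all genes. AT5G26670 had −2.73, −0.60, −1.63 and −1.66 and did not pass (limma, adjusted p = 0.0963), while its 3 probes averaged −1.65, −2.01 and −1.30. Neither of the 2 tested BURP-domain subunits passed in limma, and 1 of them, JP630 (AT1G23760), had an unadjusted p under 0.05 (log2 ratio −0.85).

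**Figure D2:**
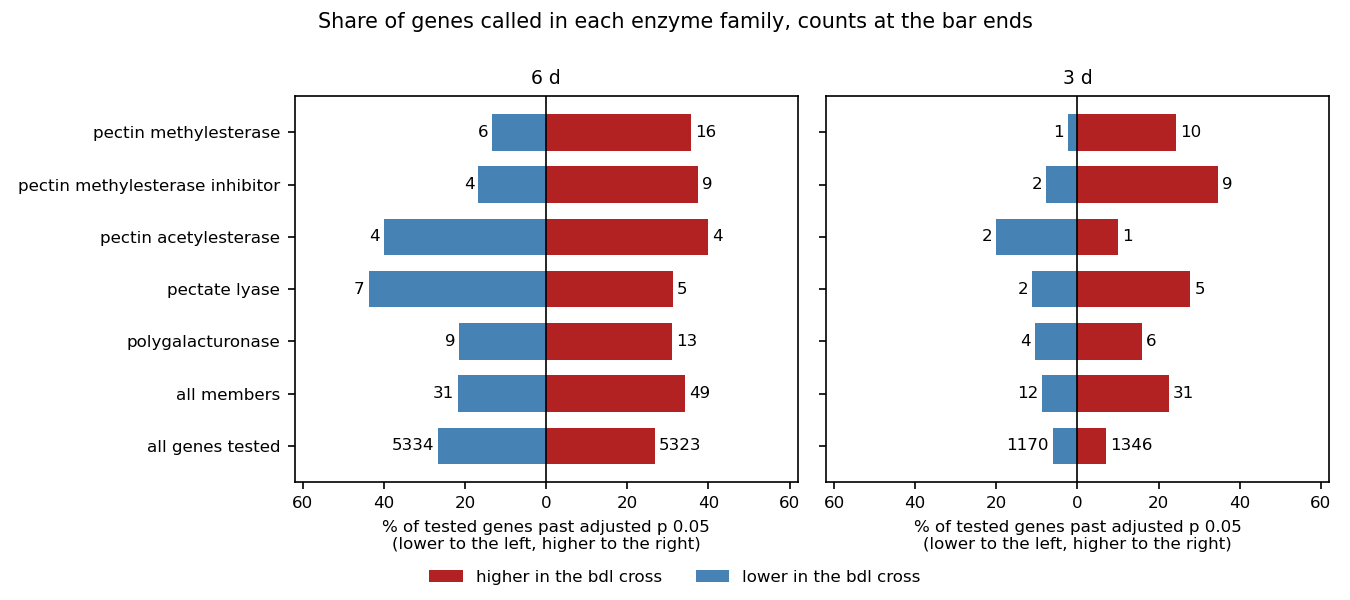
Percentage of tested genes called higher (right) and lower (left) in the bdl cross at 6 d and at 3 d, for the 5 large families, all members and all genes tested, with counts at the bar ends. At 3 d the higher share of all members was 22.5% beside 7.00% of all genes; at 6 d it was 34.3% beside 26.7%.

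Some marker genes of other tissues were higher in the bdl cross at 3 d, though most did not pass. Of 8 tested endosperm markers 2 were higher and 0 lower (5 at an unadjusted p under 0.05 in limma), beside 7.00% higher over all genes. The summed intensity of the endosperm list was 12666 to 15926 in the bdl cross against 7071 to 7863 in the Col-0 cross. Much of both sums came from 1 gene, MPC (AT3G19350), which averaged 9300 in the bdl cross and 4286 in the Col-0 cross. Of 10 seed coat markers 4 were higher and 0 lower, with sums of 141151 to 189686 in the bdl cross against 87452 to 126286 in the Col-0 cross. On all 4 arrays 7 of 10 endosperm markers were above the blanks in the bdl cross and 5 in the Col-0 cross, and 8 of 11 seed coat markers in each, while 0 markers of either list were at blank level on every array. The embryo markers gave 6 higher and 2 lower of 9, with sums of 15875 to 48848 in the bdl cross against 9234 to 34596 in the Col-0 cross. Much of these ranges came from LEC1 (AT1G21970), with 4790 to 40995 in the bdl cross and 3529 to 25704 in the Col-0 cross. The part of these tissues in the members' result was not tested. In such bulk samples fewer cells of a type and less RNA per cell cannot be told apart.

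Since VGD1 and AT59 are known from pollen, 31 pollen genes outside the members were also examined, in a list chosen after these values were seen. Of 28 with a probe, 10 were above the blanks on no array. Of 14 tested at 3 d 2 (14.3%) were higher and 1 (7.14%) was lower, beside 7.00% and 6.08% of all genes, and the median log2 ratio of the 14 was 0.21. The higher ones were ANX2 (AT5G28680), a receptor kinase that keeps the pollen tube intact, with 2.11, and HA8 (AT3G42640), a pollen proton pump, with 1.30. The lower one was PRF5 (AT2G19770), with −0.43. The summed intensity of the list was 3515 to 5048 in the bdl cross against 2706 to 4224 in the Col-0 cross. These ranges overlapped, but they pool the arrays and do not compare the channels within each array. Whether pollen RNA has a part in the members' increase was not tested.

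At 6 d the crosses differed far more widely, and the members' share of calls lay near that of all genes. Of 143 tested members 80 (55.9%) passed, against 53.4% of the 19972 genes tested. By direction 49 members (34.3%) were higher and 31 (21.7%) were lower, beside 26.7% and 26.7% of all genes. The median log2 ratio was 0.38 for the members and −0.02 for all genes. All arrays had the sign of the fit in 78 of the 80, and the exceptions were AT1G80140 and AT4G32370, both dim at 3 d. Leaving out replicate 1, 2, 3 or 4 gave 53, 50, 61 or 59 called members, from fewer genes with enough values. The 6 d values are ratios alone, so no level or blank spot stands behind them.

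PME inhibitors held the largest differences at 6 d. Of 24 tested 9 (37.5%) were higher and 4 (16.7%) lower, beside 26.7% and 26.7% of all genes. Their median log2 ratio was 1.23. AT1G09370 had log2 ratios of 4.53, 4.83, 4.80 and 4.81 on the 4 arrays, a mean of 4.74 ± 0.08 (SE, n = 4; limma, adjusted p = 0.00257) or 26.8-fold. AT5G46960 had 4.01, 4.65, 3.53 and 4.24, a mean of 4.11 ± 0.20 (limma, adjusted p = 0.00274). These 2 were the highest of all members at this stage. AT3G12880 (3.38), AT2G01610 (3.03) and AT1G56100 (2.68) were higher as well. C/VIF1 and C/VIF2, the invertase inhibitors, reached 2.67 and 1.97 at this stage. The lower inhibitors were AT5G62350 (−1.46), AT1G14890 (−1.10), AT1G02550 (−0.86) and AT4G25260 (−0.58).

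PMEs at 6 d gave 16 (35.6%) higher and 6 (13.3%) lower of 45, beside 26.7% and 26.7% of all genes. ATPMEPCRD (AT2G43050) had 3.86, 4.12, 3.69 and 4.19, a mean of 3.97 ± 0.12 (limma, adjusted p = 0.00257), although at 3 d it was above the blanks on 1 array of the Col-0 cross and none of the bdl cross. AT3G05610 had 4.01, 4.63, 3.24 and 3.82, a mean of 3.93, and AT5G51490 had 3.09, 3.03, 4.28 and 3.78, a mean of 3.55. Both had been higher at 3 d too. VGDH2 was higher by 2.79 ± 0.26 (limma, adjusted p = 0.00614). VGD1 had 2.67, 0.97, 2.20 and 1.38, a mean of 1.81 (limma, adjusted p = 0.0332), and its call ended without replicate 1, 3 or 4 (adjusted p 0.0503, 0.111 and 0.074). VGDH1 read 5.79, 2.05, 0.45 and 1.44 and did not pass (limma, adjusted p = 0.0803). QRT1 (AT5G55590), the PME needed to separate pollen tetrads, was higher by 1.81 on 3 arrays but dim at 3 d, and its call ended with an intensity trend (adjusted p = 0.0633). AT3G49220 had 2.11, 2.35, 3.09 and 2.47, AT1G23200 averaged 1.84, and PME3 was higher by 0.95 ± 0.06 (limma, adjusted p = 0.00369).

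PME5 was the lowest of all tested members at 6 d. Its ratios were −2.84, −2.71, −2.79 and −2.58, a mean of −2.73 ± 0.08 or 6.64-fold lower (limma, adjusted p = 0.00257). The other lower PMEs had much smaller differences: AT5G26810 had −0.71, PE11 (AT2G21610) −0.68, AT5G64640 −0.68, PME31 (AT3G29090) −0.63 and AT5G04960 −0.29.

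Pectate lyases split at 6 d, with 5 (31.2%) higher and 7 (43.8%) lower of 16, beside 26.7% and 26.7% of all genes. AT3G01270 had 3.27, 3.09, 3.24 and 3.12, a mean of 3.18 ± 0.07 (limma, adjusted p = 0.00257), and AT5G63180 had 2.91, 3.19, 3.18 and 3.35, a mean of 3.16 ± 0.09 (limma, adjusted p = 0.00257). AT1G67750 was higher by 2.22 and AT59 by 1.64, whose arrays ran from 0.61 to 2.55. AT5G15110, among the strongest members at 3 d, had 2 values at 6 d (3.77 and 1.92) and was not tested. On the lower side AT4G24780 had −1.87, −2.00, −1.94 and −2.09, a mean of −1.98 ± 0.07 (limma, adjusted p = 0.00257), close to its ratio at 3 d. AT5G48900 averaged −1.88 and AT4G13710 −1.29. The bright AT3G55140 had −0.57, but its 3 probes read −0.57, −1.60 and −0.44 and their mean was not called (adjusted p = 0.11). AT4G13210, with −3.02, −0.70 and −1.55 on 3 arrays, was called at −2.07 but not without the dye term (−1.76, adjusted p = 0.0736).

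Polygalacturonases at 6 d gave 13 (31%) higher and 9 (21.4%) lower of 42, near the 26.7% and 26.7% of all genes. AT3G07820 had 3.20, 3.52, 4.18 and 3.46, a mean of 3.59 ± 0.17 (limma, adjusted p = 0.00271). AT3G07850 had 2.80, 2.52, 4.97 and 3.80, a mean of 3.52 ± 0.25 (limma, adjusted p = 0.00396), and AT3G14040 had 2.58, 2.50, 2.36 and 3.92. AT3G48950 (1.65) and AT4G23500 (0.85) were higher at this stage as at 3 d. AT3G61490 (−1.68 on 3 arrays, dim at 3 d) and AT3G06770 (−1.65) were the lowest. PGAZAT was lower by 0.57 on the log2 scale, near its 3 d ratio, but without replicate 1 or 2 the call ended (adjusted p 0.0541 and 0.0659). ADPG1 averaged 2.00 on 3 arrays and did not pass (limma, adjusted p = 0.0924).

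Pectin acetylesterases had 4 (40%) higher and 4 (40%) lower of 10 at 6 d, beside 26.7% and 26.7% of all genes. AT1G09550 (1.60), AT5G23870 (1.34), AT4G19420 (0.99) and AT3G09410 (0.65) were higher. AT3G62060 had −1.98, −2.77, −1.07 and −2.15 (mean −1.99), AT5G45280 averaged −1.65, AT5G26670 −1.32 and AT3G05910 −0.82. For AT5G26670 and AT5G45280 all 3 probes were negative, from −0.91 to −2.08 and from −1.27 to −1.65. Of the remaining members, the BURP-domain subunit PG2 (AT1G70370) was higher by 1.50 ± 0.12 (limma, adjusted p = 0.0049). PGIP1 (AT5G06860), an inhibitor of fungal polygalacturonases, was higher by 2.74 on 3 arrays (2.91, 1.43 and 3.32; limma, adjusted p = 0.0418), and it was dim at 3 d.

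**Figure D3:**
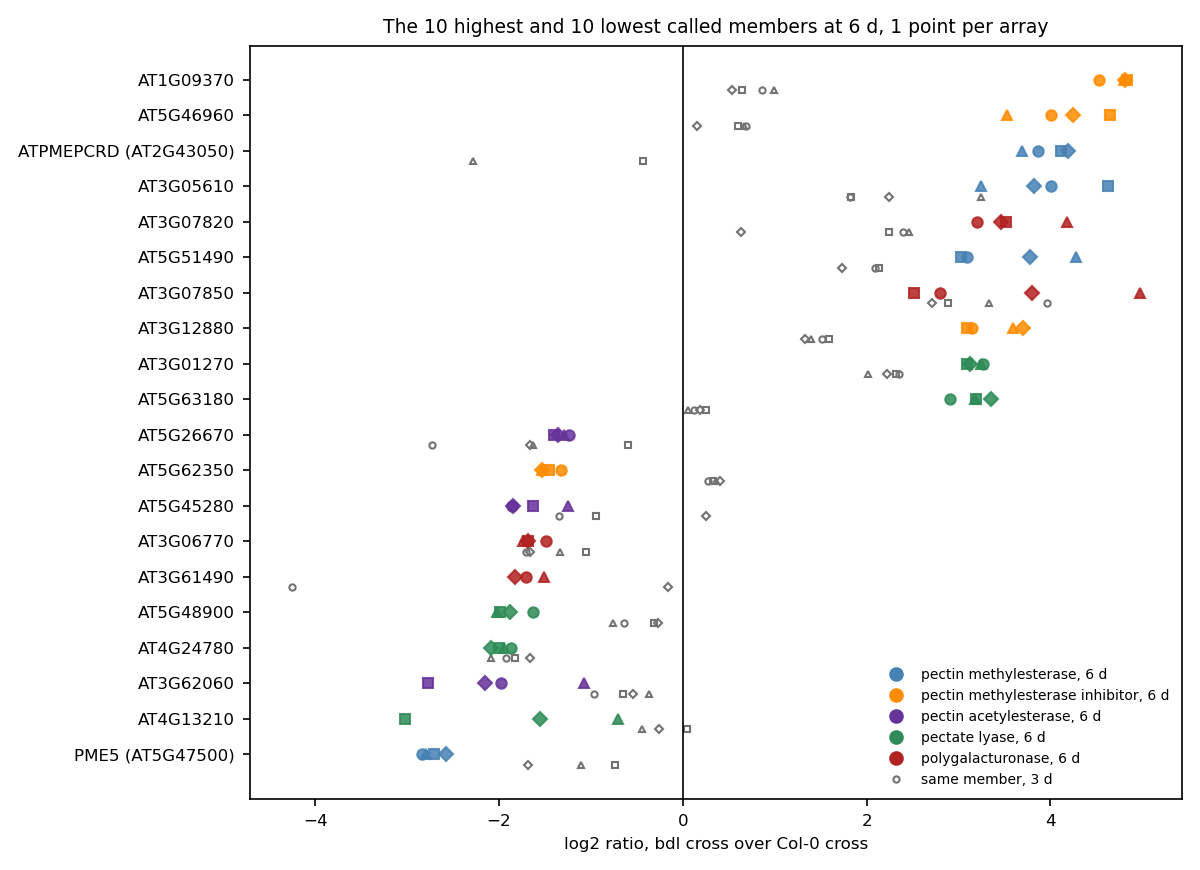
Log2 ratio (bdl cross over Col-0 cross) of the 10 highest and 10 lowest called members at 6 d, 1 filled symbol per array coloured by family, with the 3 d ratios of the same member as small open symbols just beneath. AT1G09370 leads at 4.53 to 4.83, and PME5 is lowest at −2.84 to −2.58; for AT4G24780 both stages lie close together.

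At 6 d more of the endosperm and seed coat markers passed, in a comparison where 26.7% of all genes were higher and 26.7% lower. Of 8 tested endosperm markers 5 were higher and 0 lower, with a median log2 ratio of 1.71, and of 9 seed coat markers 6 were higher and 1 lower, with a median of 0.81. Embryo markers gave 4 higher and 1 lower of 8, with a median of 1.20. The pollen list had 4 higher and 3 lower of 16. The part of any of these tissues in the members' ratios was not tested.

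Of the 24 members called at both stages 23 ran in the same direction, given the assumed direction of the 6 d ratios. With the 6 d sign turned, 1 would. Over all genes 1407 of 1734 called at both ran in the same direction. The stages share no arrays. Of 124 members tested at both, 18 (14.5%) were higher at both and 5 (4.03%) were lower at both, beside 4.27% and 3.44% of 18250 genes. The 5 lower at both were AT4G24780, AT3G06770, PGAZAT, AT3G05910 and AT3G62060, that is, 1 pectate lyase, 2 polygalacturonases and 2 pectin acetylesterases. The 3 d call of AT3G62060 ended in 5 alternative settings, with an adjusted p of 0.0541 when dim probes were kept, and its 6 d call ended without replicate 2 (adjusted p = 0.0557). The pectate lyase AT3G07010 was lower at 6 d and higher at 3 d (−0.30 and 0.88), and its 6 d call ended in 8 alternative settings. No member (0 of 124) was higher at 6 d and lower at 3 d, beside 1.19% of all genes. Another 27 members (21.8%) were higher and 21 (16.9%) were lower at 6 d alone by the threshold, beside 22.7% and 23.8% of all genes, and this is not itself a test of the difference between stages.

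**Figure D4:**
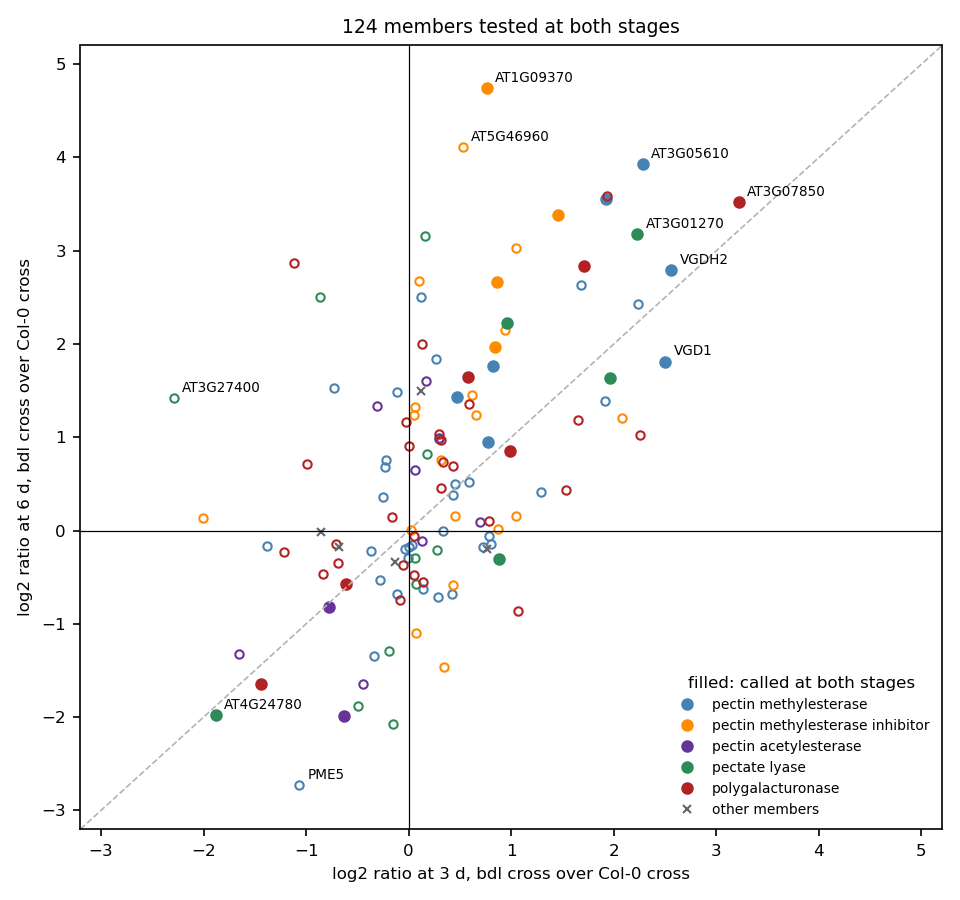
Log2 ratio at 6 d against that at 3 d for the 124 members tested at both stages, coloured by family, filled where called at both stages; the dashed line marks equal ratios. VGD1, VGDH2 and AT3G07850 lie near the line, AT1G09370 and AT5G46960 far above it, and PME5 below it.

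The difference between the stages was tested itself over all 8 arrays. Of 129 members tested 56 (43.4%) passed, 37 with a higher ratio at 6 d than at 3 d and 19 with a lower one. Over 18836 genes 44.6% passed, 23.9% higher and 20.7% lower, so the members' share lay near the background. PME inhibitors made up 10 of the 37 increases, out of 22 tested, and 2 of the decreases. PMEs gave 10 and 6 of 40, polygalacturonases 7 and 4 of 37, pectate lyases 5 and 4 of 15, and pectin acetylesterases 3 and 3 of 10.

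Among inhibitors the ratio of AT1G09370 was 3.98 ± 0.14 log2 units higher at 6 d than at 3 d (limma, adjusted p = 1.45e-05), with 4.53 to 4.83 at 6 d against 0.54 to 0.99 at 3 d. AT5G46960 differed by 3.58 ± 0.23 (limma, adjusted p = 7.27e-05), but 4 of its 8 channel intensities at 3 d, both of replicate 4 among them, were at 75% or more of the highest spot of their channel. AT1G56100 was called as well (limma, adjusted p = 2.28e-05). All 8 of its intensities at 3 d (58170 to 71829) were at 78.2% to 93.2% of the highest spot, so no size is given. For each of the 3 the lowest 6 d array lay far above the highest 3 d array. AT5G62350 went the other way, with −1.53 to −1.32 at 6 d against 0.27 to 0.40 at 3 d, a difference of −1.80 ± 0.08 (limma, adjusted p = 2.47e-05). AT5G62340, AT5G62350 and AT5G62360 stand side by side in the gene order, and their calls at 3 d were higher, not past and not past.

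The pectate lyase AT5G63180 had 2.91 to 3.35 at 6 d against 0.06 to 0.25 at 3 d, a difference of 3.00 ± 0.11 (limma, adjusted p = 1.8e-05). AT3G27400 was called higher at 6 d than at 3 d (limma, adjusted p = 0.00288), but its 6 d ratio alone did not pass (adjusted p = 0.0826), and no size is given because its bdl channel at 3 d was above the blanks on no array. AT5G48900 (−1.39), AT3G07010 (−1.18) and AT4G13710 (−1.10) had lower ratios at 6 d. Among PMEs AT3G49220 differed by 2.39 ± 0.17 (limma, adjusted p = 0.000105) and ATPMEPCRC (AT3G14300) by 2.26. PME5 differed by −1.59 ± 0.23 (limma, adjusted p = 0.00333), with −2.84 to −2.58 at 6 d against −1.68 to −0.74 at 3 d.

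The pollen-linked PMEs VGD1 and VGDH2 gave no called difference between stages (−0.70 ± 0.44 and 0.23 ± 0.27; limma, adjusted p = 0.254 and 0.536). Nor did the exopolygalacturonase AT3G07850 (0.30 ± 0.55) or the pectate lyase AT59 (−0.32 ± 0.40), while AT3G01270 was higher by 0.96 ± 0.10 at 6 d (limma, adjusted p = 0.000416). The polygalacturonase AT3G07830 was called higher at 6 d than at 3 d, but at 3 d it was above the blanks on 1 array in the bdl cross and 2 in the Col-0 cross. Its 3 d arrays ran from −3.40 to 0.47, and the call ended without replicate 1 or 3 of 6 d or replicate 2 of 3 d (adjusted p 0.0633, 0.0591 and 0.0664).

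**Figure D5:**
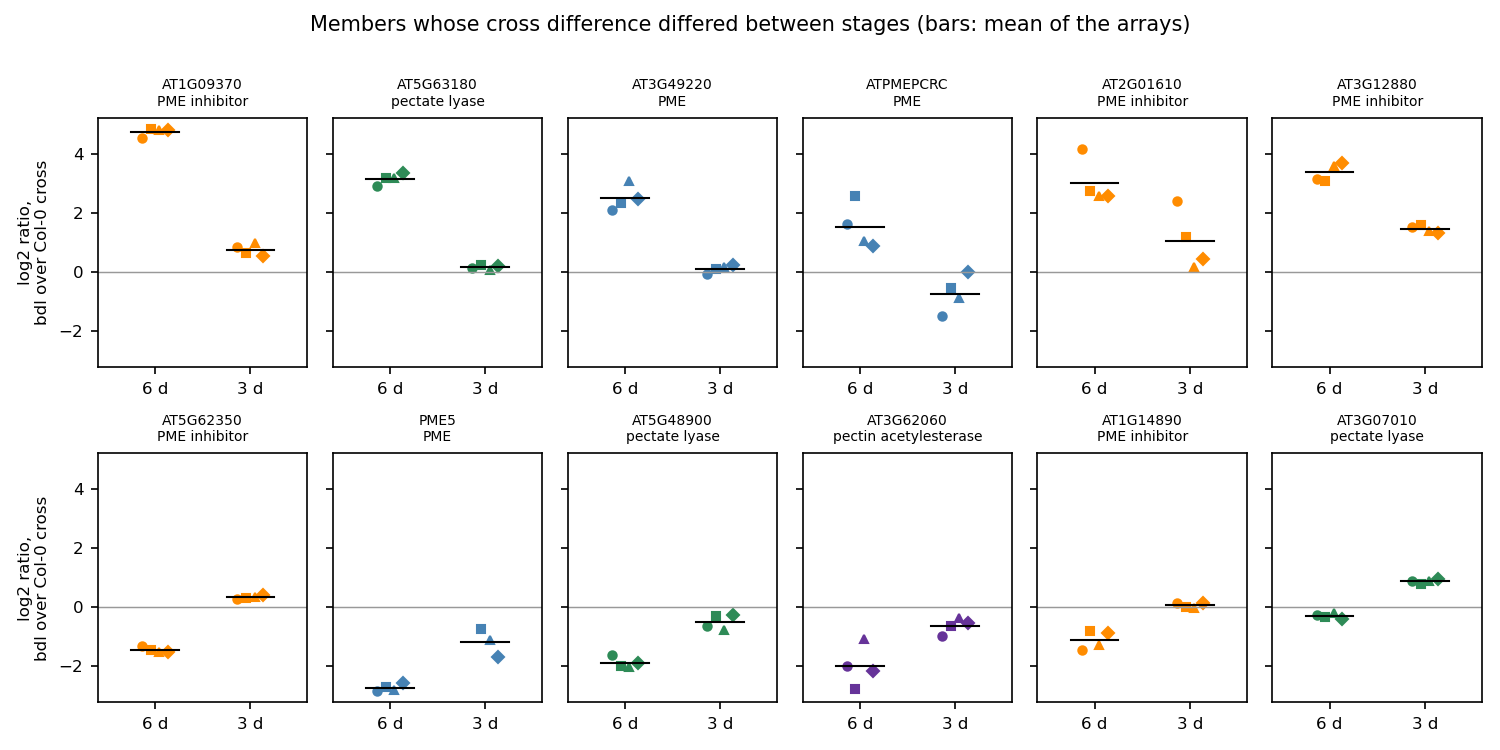
Log2 ratios at 6 d (left) and 3 d (right) of 12 members whose cross difference differed between the stages, 1 symbol per array with a bar at the mean. Members with both crosses above the blanks on at least 2 arrays of 3 d, and with at most 2 of 8 intensities near the top of the scale, are shown. The upper row holds their 6 largest increases (1.93 to 3.98 log2 units) and the lower row their 6 largest decreases (−1.80 to −1.18); the arrays of the 2 stages do not overlap in any panel.

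Many members lie side by side in the genome. In the RefSeq gene order 52 members form 23 groups of adjacent genes. VGD1 and VGDH1 form 1 of them, and both were higher at 3 d. AT5G07420 and AT5G07430 were both higher at 3 d, and their neighbour AT5G07410 was not tested. AT3G07820 and AT3G07830 were both higher at 6 d, but the call of AT3G07830 ended without replicate 1, 2 or 3 (adjusted p 0.0857, 0.0647 and 0.0512). Other groups were mixed, as in AT5G04960 and AT5G04970, which were lower and higher at 6 d (−0.29 and 0.52). Adjacent copies may share signal on the array, and the specificity of the probes was not tested.

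Genes that build and methylate homogalacturonan had no call at 3 d and more decreases than increases at 6 d. Of 14 tested genes for homogalacturonan synthesis and methylation 0 were called at 3 d in limma (5 at an unadjusted p under 0.05), beside 13.1% of all genes. Their median log2 ratio was 0.07. At 6 d 4 (26.7%) were higher and 7 (46.7%) lower of 15, beside 26.7% and 26.7% of all genes, and the median of the 15 was −0.36. QUA1 (AT3G25140), a galacturonosyltransferase gene, was lower by 0.84 on the log2 scale, and GAUT14 (AT5G15470) had −0.69, while GAUT6 (AT1G06780) was higher by 0.76 and TSD2 (AT1G78240), also known as the pectin methyltransferase QUA2, by 0.57. The genes that supply nucleotide sugars gave 1 higher of 14 at 3 d, GAE6 (AT3G23820, an epimerase that makes UDP-galacturonic acid) with 0.38. At 6 d they gave 4 higher (28.6%) and 5 lower (35.7%), beside 26.7% and 26.7% of all genes. GAE6 was at 1.78, UGD4 (AT5G39320) at 1.10 and UGD3 (AT5G15490) at 1.09, while UGD2 (AT3G29360), a UDP-glucose dehydrogenase, was at −1.09.

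Of 8 listed wall receptors tied to pectin only 4 could be tested, and all 4 were lower at 6 d, where 26.7% of all genes were lower. They were WAK2 (AT1G21270) with −3.23, HERK1 (AT3G46290) with −0.73, FER (AT3G51550) with −0.63 and THE1 (AT5G54380) with −0.56. At 3 d FER was higher by 0.56 and the other 3 did not pass. Of 10 tested mucilage genes 0 were called at 3 d in limma (7 at an unadjusted p under 0.05), beside 13.1% of all genes. At 6 d 4 of the 10 were higher and 0 lower, beside 26.7% and 26.7% of all genes. Among the higher ones was MUM2 (AT5G63800), a galactosidase gene of seed coat mucilage, with 1.15. A further 27 genes are described as PME inhibitors in words the rule did not cover. Of 18 tested at 3 d 5 were higher and 1 lower, beside 7.00% and 6.08% of all genes, and their median log2 ratio was 0.57. Of 16 tested at 6 d 2 (12.5%) were higher and 1 (6.25%) lower, fewer than the 26.7% and 26.7% of all genes. The median of the 16 was 0.04. Among these, AT5G50030 (2.33) and AT2G47050 (2.17), which lies next in locus number to VGD1, were higher at 3 d, and AT5G46950 (4.55) and AT5G50050 (4.36) were higher at 6 d.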

How the data were processed

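Embryo RNA of both crosses was hybridised on 2-colour arrays, 4 per stage; per the labels' protocols it was amplified as antisense RNA and coupled to dyes. The scanner and the background and normalization steps were not stated in the labels or files. The 3 d files deposited by the authors hold 1 linear intensity per spot and cross, already background-subtracted and balanced as judged from the values, so no loess step was added. For 6 d the authors' deposited table of log2 ratios was used; its 24661 rows with at least 2 values at 3 d each equalled the ratios of 1 spot within 1e-06, which gave their names and the direction at 3 d. That the 6 d columns run the same way was assumed.

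Members were chosen by words in the description column, and the members and gene lists were chosen with earlier results of these data known. Each locus took its brightest probe at 3 d. At 3 d, either channel had to exceed the 95th percentile of 1743 blank spots on at least 2 arrays; each stage needed values on 3 arrays with both dye orientations. Log2 ratios were fitted with lmFit and eBayes of limma 3.58.1 (R 4.3.3) and a dye term for each probe, checked on simulated data, and adjusted by the Benjamini-Hochberg method over all genes tested. The stage contrast used 8 arrays with a shared dye term. "At least N-fold" sets the measured cross against the dimmest signal above the blanks. Genes were named from RefSeq (TAIR10.1), which held all 195 member loci; it was used for names and gene order alone, since no build is named. Named were, per comparison, up to 10 higher and 10 lower called members by size, the 10 brightest, members of known role, and up to 4 called genes per list and direction; others named to complete a family's calls or a group of neighbours were chosen after their values were seen. Intensities at 75% or more of the highest gene spot of their channel were treated as near the top of the scale, a limit chosen after seeing the data. Slides and scan dates are not named, so no batch was tested. Array number and brightness limit precision; no sequences were used. Alternatives were another dye term, normalization, filter, probe rule and each array left out.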

Additional observations from a re-analysis of the deposited data

Results flagged for a closer look

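Dixon's criterion, which chance alone meets in about 1 in 20 groups, was applied at each stage to every member named by the stated rules with values on 4 arrays. Some flags are therefore due by chance alone. In 8 of these sets of 4 arrays 1 array lay far from the others. At 3 d these were AT1G02810 on replicate 2 (−0.91, others −1.58 to −1.51), AT3G07820 on replicate 4 (0.63, others 2.24 to 2.46), AT3G53190 on replicate 4 (0.67, others −0.21 to −0.07), AT5G23870 on replicate 1 (−1.34, others −0.11 to 0.11) and AT5G46960 on replicate 4 (0.16, others 0.60 to 0.69). At 6 d they were AT1G09370 on replicate 1 (4.53, others 4.80 to 4.83), AT2G01610 on replicate 1 (4.18, others 2.59 to 2.76) and AT3G53190 on replicate 4 (−0.40, others −0.27 to −0.24). On replicate 4 of 3 d AT5G46960 was near the top of the scale in both crosses, at 87.8% of the highest spot in the bdl cross and 84.3% in the Col-0 cross. Replicate 4 of 3 d, which stood slightly apart in its correlations with the other arrays, holds 3 of the 5 at that stage.

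In 56 members the difference between the crosses at 6 d differed from that at 3 d by the test over all 8 arrays. Listed here are the 10 largest called increases and the 10 largest called decreases among them, ranked by fitted value. Other named members, such as AT3G12880 (1.93), were called too. Higher at 6 d, on the log2 scale, were AT3G07830 by 3.99, AT1G09370 by 3.98, AT3G27400 by 3.63, AT5G46960 by 3.58, AT5G63180 by 3.00, AT1G56100 by 2.59, AT3G49220 by 2.39, AT3G14300 by 2.26, AT1G70720 by 2.14 and AT2G01610 by 1.98. The differences of AT5G62350 (−1.80), AT5G47500 (PME5, −1.59), AT5G48900 (−1.39), AT3G62060 (−1.36), AT3G07010 (−1.18), AT1G14890 (−1.18), AT5G64640 (−1.10), AT4G13710 (−1.10), AT5G45280 (−1.08) and AT5G26810 (−1.0) ran the other way. In 2 of those that rose, AT3G27400 and AT1G70720, the bdl channel at 3 d was above the blanks on no array, and AT3G07830 was above them on 1 array in the bdl cross and 2 in the Col-0 cross. At 3 d all 8 channel intensities of AT1G56100 and 4 of 8 of AT5G46960 were near the top of the scale, so their 3 d ratios are uncertain.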

How the results depend on the processing

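At 3 d, fits with the dye term on 3 of the 4 arrays gave 0 called members, 0 higher and 0 lower, in all 4 cases (1 residual degree of freedom; 52 to 60 members at an unadjusted p under 0.05). Without the dye term, such fits gave 27 to 43 called (27 without replicate 2 and 28 without replicate 3), 19 to 33 higher and 7 to 10 lower. Other settings at 3 d gave 38 (no filter on dim probes) to 60 called (no dye term), within 1.5 times the 43 reported, but all genes were called at 8.47% to 40.3%; 40.3% held where both channels were above the blanks on all arrays, with 48 of 80 members called (37 higher, 11 lower). A dye term following the blank spots, chosen after seeing the data, called 56 of 138 members beside 25.3% of all genes. At 6 d, leaving out 1 array with the dye term gave 50 to 61 called, 36 to 42 higher and 14 to 21 lower, with fewer genes tested, and the other settings that kept all arrays gave 71 to 79. With only probes above the blanks at 3 d, also chosen after seeing the data, 73 of 127 members were called at 6 d. The stage difference gave 48 to 57 called.

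With the replicate number as a block the stage difference called 49 members (31 higher and 18 lower), and AT3G07830, AT3G05610, AT5G51490, AT5G45280 and ADPG1 were not among them (adjusted p 0.0517, 0.07, 0.0514, 0.132 and 0.0722). Same-numbered arrays did not deviate together, with correlations of −0.04, −0.043, −0.078 and −0.074 over 15601 genes. Differently numbered arrays gave −0.083 to 0.106. The numbers thus showed no sign of pairing, but the check cannot exclude a shared batch or day behind them. Of single members' values 1 reversed: AT3G26610 at 3 d, −0.03 without replicate 2 and the dye term. At 3 d 140 alternative values lost a call and 32 gained one, with 869 unaltered; at 6 d these were 39, 8 and 674, and for the stage difference 32, 5 and 655. Causes were not tested. Values at 6 d have no intensity behind them, and at 3 d members near the blanks were measured beside blank spots whose own ratios differ between arrays.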
